A study of Mus musculus with 24 samples.

Results

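The last day of a differentiation course was examined in cultured mouse myeloid progenitors, by setting gene expression at 120 h after estradiol withdrawal against expression at 96 h. The comparison rests on 4 of the 24 RNA-seq libraries of the series, 2 at 120 h and 2 at 96 h, chosen by their time labels alone. All 45319 gene rows were kept, and 14615 passed the filter on low counts and were tested. The cells, named Lys-GFP-ER-HoxA9 and on the C57Bl/6 background, carry a lysozyme-GFP reporter and a fusion of the homeobox protein HoxA9 with the estrogen receptor. They were grown in RPMI1640 with 10% fetal bovine serum, stem cell factor and 0.5 uM estradiol, and both groups had then been cultured without estradiol, for 120 h in the later group and for 96 h in the earlier one. The growth conditions are otherwise labelled alike for both groups, and the labels state neither whether the line is 1 clone nor which promoter drives the fusion. All 20 libraries of the withdrawal course, 2 at each of 10 times, were fitted together so that they shared 1 estimate of the spread. The labels call the 2 libraries of a time replicates without saying that they were separate cultures, so p-values measure only the spread between these libraries.

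HoxA9 is a transcription factor that keeps myeloid progenitors dividing and immature, and its fusion to the estrogen receptor makes that activity depend on estradiol. When the block is lifted, granulocyte precursors make their granule proteins in a fixed order: the proteases and peroxidase of primary granules, then the antimicrobial proteins of secondary granules, then gelatinase and the contents of secretory vesicles. Division ends between the stages that fill the secondary and the gelatinase granules. Macrophages, which arise from the same progenitors, build up lysosomes, complement C1q, scavenger receptors and antigen presentation molecules as they mature.

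Granule and other myeloid transcripts were abundant at both times, and the 4 libraries did not lie equally far apart. Libraries are named 120A, 120B, 96A and 96B after the letters of the deposited columns, and values stand in that order within a time. Gene counts were 48.2 and 36.7 M at 120 h, against 41.4 and 39.3 M at 96 h, and 16995 and 17042 genes were detected at 120 h, against 17268 and 17269 at 96 h. On the first principal component of the course (72.4% of variance) the libraries lay at 204 and 195 at 120 h, against 173 and 160 at 96 h, and on the second (15.6%) at -66.2 and -63.1 at 120 h, against -6.7 and 8.19 at 96 h. The 96 h libraries were the least alike of any time (Pearson r across genes 0.9926, against 0.9938 at 120 h), with 96A nearer to 120 h than 96B on both components. Mitochondrially encoded genes took 0.918 and 0.898% of counts at 120 h, against 1.03 and 0.976% at 96 h. Libraries were scaled with TMM factors of 0.767 and 0.815 at 120 h, against 0.81 and 0.876 at 96 h. Levels are in CPM, the count of a gene per 1 M counts of its library on that scale. They are shares of each library's RNA, so fewer cells of a type and less RNA per cell cannot be told apart.

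Promoter sequences from the mitotic, interferon and lysosomal lists are shown first, because these lists differed from promoters at large in some motifs. The genes printed are examples that hold the motifs, and the call of Ifit1 was lost when single libraries were left out. Windows run from 250 bases before to 50 after the start of a gene (RefSeq, GRCm38.p6), are written 5′ to 3′ on the strand of the gene, and were available for 10162 of the genes tested. In the promoters of the mitotic spindle protein gene Prc1 (chr7:80294201-80294500, plus strand) and of Cdk1, the kinase that drives entry into mitosis (chr10:69352863-69353162, minus strand), capitals mark CCAAT, the box bound by NF-Y, and TTTGAA or TTCGAA, the cell cycle homology region known from genes of late cell cycle phases. In the promoter of Ifit1, an interferon-induced antiviral gene (chr19:34640639-34640938, plus strand), capitals mark GAAANNGAAA, the core of the interferon-stimulated response element. In the promoter of Ctsd, the lysosomal protease cathepsin D (chr7:142387778-142388077, minus strand), capitals mark TCACGTGA, the core of an element known from lysosomal genes. All motifs were searched on both strands, and a match on the other strand stands here as its reverse complement, such as ATTGG for CCAAT. Matches of different motifs can share end letters, and such cases were not separated.
Prc1: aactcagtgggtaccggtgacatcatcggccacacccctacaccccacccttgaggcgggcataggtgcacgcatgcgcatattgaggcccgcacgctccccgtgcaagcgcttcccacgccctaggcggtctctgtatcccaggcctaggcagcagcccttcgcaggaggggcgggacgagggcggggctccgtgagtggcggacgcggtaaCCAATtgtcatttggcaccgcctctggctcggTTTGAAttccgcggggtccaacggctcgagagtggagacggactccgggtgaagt
Cdk1: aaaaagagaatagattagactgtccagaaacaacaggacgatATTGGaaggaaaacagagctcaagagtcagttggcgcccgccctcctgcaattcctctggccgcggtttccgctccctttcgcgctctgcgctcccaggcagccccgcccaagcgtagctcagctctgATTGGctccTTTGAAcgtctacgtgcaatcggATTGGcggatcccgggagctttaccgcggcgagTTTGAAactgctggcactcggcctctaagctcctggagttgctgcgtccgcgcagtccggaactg
Ifit1: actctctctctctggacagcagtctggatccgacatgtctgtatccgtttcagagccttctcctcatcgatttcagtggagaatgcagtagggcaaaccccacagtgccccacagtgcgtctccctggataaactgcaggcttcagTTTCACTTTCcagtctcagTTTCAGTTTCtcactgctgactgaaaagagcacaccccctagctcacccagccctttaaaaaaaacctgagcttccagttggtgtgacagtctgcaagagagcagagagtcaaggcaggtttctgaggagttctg
Ctsd: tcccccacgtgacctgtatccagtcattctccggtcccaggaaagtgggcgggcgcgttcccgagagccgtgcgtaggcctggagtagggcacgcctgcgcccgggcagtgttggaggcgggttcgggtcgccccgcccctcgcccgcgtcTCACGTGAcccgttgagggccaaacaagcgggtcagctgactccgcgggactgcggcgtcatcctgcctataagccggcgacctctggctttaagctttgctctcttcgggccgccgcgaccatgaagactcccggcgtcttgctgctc

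In promoters of mitotic genes the pair of cell cycle motifs stood at a higher share than in promoters at large. CCAAT stood in 21 of the 28 windows of the G2/M and mitosis list (75.0%), against 39.0% of all windows of tested genes, and TTTGAA or TTCGAA in 21 of 28 (75.0%), against 14.5%. Both stood in 18 of 28 (64.3%), against 6.21%. In Prc1 the CCAAT box began at base -37 from the start and TTTGAA at base -5, where the start of the gene is base 0. Cdk1 had CCAAT at -208, -80 and -48 and the other motif at -71 and -15. Among the 31 windows of the DNA replication list, 19 had CCAAT (61.3%), 6 had TTTGAA or TTCGAA (19.4%) and 5 had both (16.1%). Among 17 windows of cholesterol genes 15 had CCAAT (88.2%). Across the 918 windows of genes at least 2-fold lower at 120 h, 128 (13.9%) held CCAAT together with TTTGAA or TTCGAA, against 51 of 796 windows (6.41%) of genes at least 2-fold higher. GAAANNGAAA stood in 17 of 26 windows of interferon-stimulated genes (65.4%), against 3.37% of all windows, and TCACGTGA in 5 of 28 windows of lysosomal genes (17.9%), against 1.99%. Among the 796 windows of genes at least 2-fold higher, 61 held GAAANNGAAA (7.66%) and 13 held TCACGTGA (1.63%). Among the 918 of genes at least 2-fold lower, 23 held GAAANNGAAA (2.51%) and 10 held TCACGTGA (1.09%). Ifit1 held GAAANNGAAA at -104 and -85, and Ctsd held TCACGTGA at -99. Some other genes named below lacked the motifs. The window of Nusap1 held neither cell cycle motif, and that of Ccnb1 held CCAAT without TTTGAA or TTCGAA. Irf7 had no GAAANNGAAA, and C1qb, C1qc and Psap had none of the motifs searched. The letters are a description and no site of binding was measured.

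Between 96 and 120 h the transcripts of DNA replication and mitosis fell, and those of lysosomal proteins, complement C1q and antigen presentation rose, by the counts given for each list further on. Calls required an adjusted p under 0.05 (edgeR quasi-likelihood test, Benjamini-Hochberg over all genes tested). By that rule 6313 genes (43.2%) were called, 3181 higher (21.8%) and 3132 lower (21.4%) at 120 h. The count of called members in each gene list is to be read against these shares. Changes of at least 2-fold were called higher for 1133 genes (7.75%) and lower for 1268 (8.68%). The libraries of the 2 times did not overlap for 9998 genes (68.4%), among them 6287 of the 6313 called. The median log2 change of all genes tested was 0.00475, with a lower quartile of -0.425 and an upper quartile of 0.349, and the median absolute change of called genes was 0.756. Of the genes called higher, 2178 (68.5%) had their highest mean of the 10 times at 120 h, and of those called lower 2045 (65.3%) had their lowest. The call used these levels, so the shares describe the course and are no test. Against them, 3963 of all genes tested (27.1%) were highest and as many were lowest at 120 h.

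**Figure D1:**
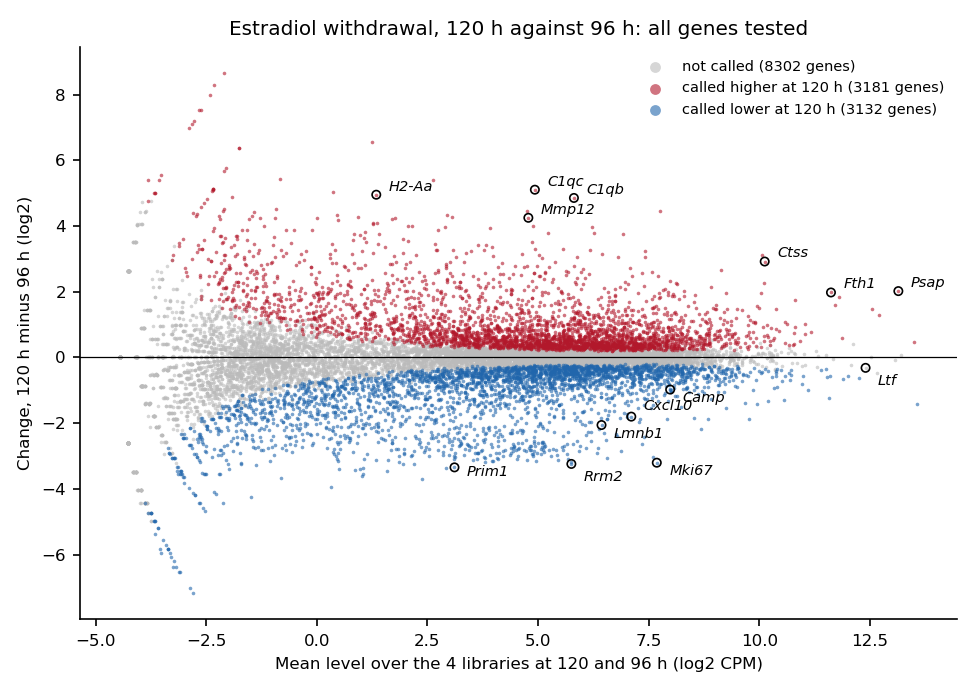
Log2 change at 120 h against 96 h for every gene tested (vertical axis), plotted against its mean level over the 4 libraries (horizontal axis, log2 CPM), with genes called higher in red and lower in blue. The 3181 genes called higher and the 3132 called lower lie at all levels of expression, and the labelled C1qb and C1qc stand at 4.86 and 5.11 while Mki67 stands at -3.20.

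The largest changes were ranked among called genes with a mean of at least 3 log2 CPM over the 4 libraries. Only genes whose libraries did not overlap between the times were ranked. The largest increases held genes of tissue macrophages and of the lysosome, and the largest decreases held genes of DNA synthesis and mitosis. C1qb (ENSMUSG00000036905.8, chromosome 4, 136880129 to 136886187, minus strand), a chain of complement C1q, had 284 and 331 CPM at 120 h, against 13.5 and 7.79 CPM at 96 h (log2 change 4.86 ± 0.19, adjusted p = 4.59e-13). Its partner chain C1qc had 170.3 and 188 CPM at 120 h, against 5.91 and 4.48 CPM at 96 h (log2 change 5.11 ± 0.18, adjusted p = 4.9e-13). At 72 h C1qb stood at 0.0476 and 0.0468 CPM, and C1qc had no count. Lgmn (ENSMUSG00000021190.11, chromosome 12, 102394084 to 102439813, minus strand), the lysosomal asparagine protease legumain, had 966 and 1060.3 CPM at 120 h, against 53.8 and 38.8 CPM at 96 h (log2 change 4.45 ± 0.16, adjusted p = 1.74e-13). Mmp12, the macrophage elastase, had 99.4 and 146 CPM at 120 h, against 8.09 and 4.797 CPM at 96 h (log2 change 4.25 ± 0.24). Msr1, a scavenger receptor for modified lipoproteins, had 295 and 304 CPM at 120 h, against 25.4 and 13.1 CPM at 96 h (log2 change 3.96 ± 0.21). In each of these 5 genes 96A was above 96B, and the lack of overlap between the times was a condition of the choice. The other 10 genes with the largest increases were Sdc3, a cell surface proteoglycan (log2 change 4.45), the adhesion gene Flrt2 (4.26), Atp6v0d2, a subunit of the vacuolar proton pump (4.01), Rab3il1 (3.94), the lipid receptor Trem2 (3.80), the macrophage sialic acid receptor Siglec1 (3.80), the endocytic adaptor Dab2 (3.75), H2-Q7 (3.51), Aif1, which codes for the macrophage protein IBA1 (3.41), and Vwf, von Willebrand factor (3.41). H2-Q7 is uncertain, since the H2-Q genes are near-identical copies among which reads may be split.

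Among the largest decreases at that level of expression were genes with known parts in the division cycle. Prim1, the catalytic subunit of DNA primase, had 1.97 and 3.71 CPM at 120 h, against 19.96 and 36.7 CPM at 96 h (log2 change -3.35 ± 0.24, adjusted p = 5.67e-10). Rrm2, the subunit of ribonucleotide reductase that limits the making of DNA precursors, had 15.1 and 20.3 CPM at 120 h, against 149 and 184 CPM at 96 h (log2 change -3.24 ± 0.13). In each the B library was the higher at both times, and the times were separate by the rule of choice. Others were Mki67, Esco2, Pclaf, Kif15, Tk1, Shcbp1, Ccne2, Kntc1, Prc1, Fancd2, Nusap1 and Pbk, with log2 changes between -3.20 and -3.09. They include the thymidine kinase Tk1, the Fanconi anemia protein Fancd2 and the spindle proteins Kif15 and Nusap1.

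**Figure D2:**
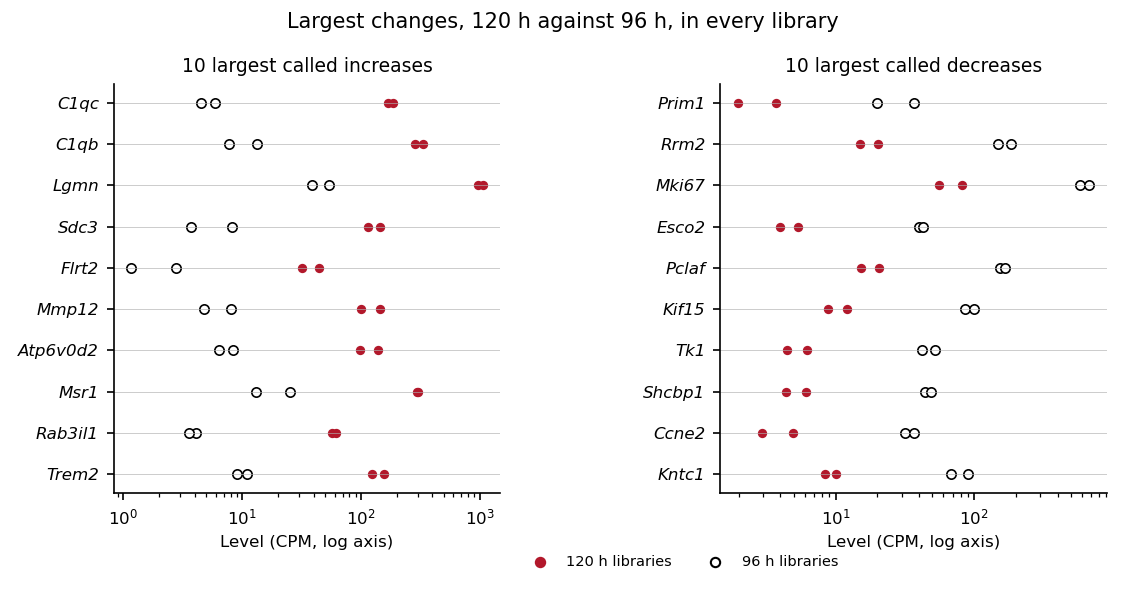
Level (CPM, log axis) of the 10 genes with the largest called increase and the 10 with the largest called decrease among genes with a mean of at least 3 log2 CPM, with 1 point per library, filled for 120 h and open for 96 h. The filled and open points are separate in all 20 genes because only genes without overlap were ranked. The first gene, C1qc, stands at 170.3 and 188 CPM at 120 h, and the last, Kntc1, at 8.38 and 10.0 CPM.

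Every tested gene of the G2/M and mitosis list was lower at 120 h. All 33 tested members were called lower, against 21.4% of all genes, and all 33 by at least 2-fold, with log2 changes between -3.20 and -1.74 and a median of -2.81. Their summed level was 529.9 and 716 CPM at 120 h, against 4147 and 4683 CPM at 96 h. Mki67 (ENSMUSG00000031004.7, chromosome 7, 135689784 to 135716361, minus strand), the Ki-67 antigen that coats mitotic chromosomes, had 55.6 and 81.4 CPM at 120 h, against 582.03 and 678 CPM at 96 h (log2 change -3.20 ± 0.14, adjusted p = 5.48e-13). Prc1, whose promoter is printed above, had 12.6 and 17.2 CPM at 120 h, against 123 and 134 CPM at 96 h (log2 change -3.11 ± 0.12, adjusted p = 4.06e-13). Cdk1 had 15.004 and 22.2 CPM at 120 h, against 131 and 151 CPM at 96 h (log2 change -2.93 ± 0.13, adjusted p = 6.97e-13). The cyclin gene Ccnb1, partner of Cdk1, had 14.9 and 21.02 CPM at 120 h, against 119 and 133 CPM at 96 h (log2 change -2.82 ± 0.13), and the kinetochore gene Ndc80 had 4.76 and 6.96 CPM at 120 h, against 46.5 and 50.4 CPM at 96 h (log2 change -3.06 ± 0.14). In all 5 genes the 120 h libraries were below the 96 h libraries without overlap, and all 33 members had their lowest mean of the course at 120 h.

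The fall of mitotic transcripts was larger in the last 24 h than in the 24 h before. Over the 24 h before, 30 of the 33 were called lower at 96 h against 72 h, where 26.5% of all genes were lower and 53.7% were called, but with a median of -0.54. The difference between the 2 steps was tested as (120 h minus 96 h) minus (96 h minus 72 h), which called 4687 genes (32.1%), 1909 with the last change more upward (13.1%) and 2778 with it more downward (19.0%). The 2 steps share the 96 h libraries, so the deviation of a 96 h library enters both with opposite sign. All 33 mitotic genes were called with a more downward last step. At 72, 96 and 120 h Mki67 stood at 793 and 783 CPM, then 582.03 and 678 CPM, then 55.6 and 81.4 CPM, and the last log2 change was lower than the one before by 2.88 ± 0.21 (adjusted p = 1.17e-08).

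Genes of DNA replication and S phase were lower as well, after a median fall in the step before that was larger than that of the mitotic genes. Of 39 tested, 38 were called lower and 1 higher, against 21.4% lower and 21.8% higher among all genes, with a median log2 change of -2.01, and their summed level was 1043 and 1206 CPM at 120 h, against 2973 and 3672 CPM at 96 h. Mcm2, a subunit of the replicative helicase, had 18.8 and 23.1 CPM at 120 h, against 90.8 and 128 CPM at 96 h (log2 change -2.38 ± 0.14, adjusted p = 1.59e-11). Uhrf1, which carries DNA methylation through replication, had 13.4 and 17.9 CPM at 120 h, against 104 and 140.1 CPM at 96 h (log2 change -2.97 ± 0.14). Tk1 had 4.43 and 6.22 CPM at 120 h, against 41.8 and 52.2 CPM at 96 h (log2 change -3.15 ± 0.16). The B library was the higher of the pair at both times in these 3 genes, and the times did not overlap. At 96 h against 72 h 38 of the 39 were lower, against 26.5% of all genes, with a median of -1.06, and the last step was the more downward in 23, against 19.0% of all genes.

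The regulators of the G1 phase were lower in part, and the inhibitors of cyclin-dependent kinases did not move as a group. Among 19 G1 cyclins, kinases and E2F factors 13 were lower and 3 higher, against 21.4% lower and 21.8% higher among all genes. The same shares stand against the other lists of this paragraph. The atypical repressor E2f7 had 1.27 and 1.61 CPM at 120 h, against 15.4 and 21.6 CPM at 96 h (log2 change -3.69 ± 0.19), the cyclin gene Ccne1 had 2.19 and 2.94 CPM at 120 h, against 12.7 and 15.1 CPM at 96 h (log2 change -2.45 ± 0.14) and Ccne2 had 2.97 and 4.95 CPM at 120 h, against 31.5 and 37.01 CPM at 96 h (log2 change -3.13 ± 0.19). Ccnd1, a D-type cyclin, was higher but low throughout, at 0.811 and 0.803 CPM at 120 h, against 0.119 and 0.145 CPM at 96 h (log2 change 2.58 ± 0.44). Cdkn1a, which codes for p21, had 52.9 and 54.1 CPM at 120 h, against 33.1 and 19.6 CPM at 96 h (log2 change 1.02 ± 0.18, adjusted p = 8.44e-05). Cdkn2c and Cdkn2d, which code for p18 and p19 of the INK4 family, were lower: Cdkn2c had 17.7 and 15.3 CPM at 120 h, against 55.8 and 55.8 CPM at 96 h (log2 change -1.76 ± 0.11, adjusted p = 5e-11) and Cdkn2d had 69.7 and 56.8 CPM at 120 h, against 91.0 and 95.2 CPM at 96 h (log2 change -0.56 ± 0.12, adjusted p = 0.000791). Cdkn1b, which codes for p27, had 87.0 and 77.8 CPM at 120 h, against 92.9 and 89.6 CPM at 96 h and did not pass the test (log2 change -0.15 ± 0.10, adjusted p = 0.234). In all, 4 of 12 inhibitors and brakes were higher and 6 lower. Myc, a driver of growth, had 25.8 and 24.2 CPM at 120 h, against 45.8 and 54.6 CPM at 96 h (log2 change -1.01 ± 0.11). Its antagonist Mxd1 had 293 and 213 CPM at 120 h, against 311 and 304 CPM at 96 h and did not pass (log2 change -0.28 ± 0.13, adjusted p = 0.082). Mxd1 passed without 120A (log2 change -0.52, adjusted p = 0.00421), without the filter on low counts (adjusted p = 0.0198) and with libraries scaled to their totals (adjusted p = 0.015). Mxd3, a relative expressed in dividing cells, had 0.757 and 1.34 CPM at 120 h, against 7.64 and 10.1 CPM at 96 h (log2 change -3.11 ± 0.25). Across the MYC network 5 of 11 genes were lower and 2 higher, and leaving out any 1 of the 4 libraries left at most 1 higher.

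**Figure D3:**
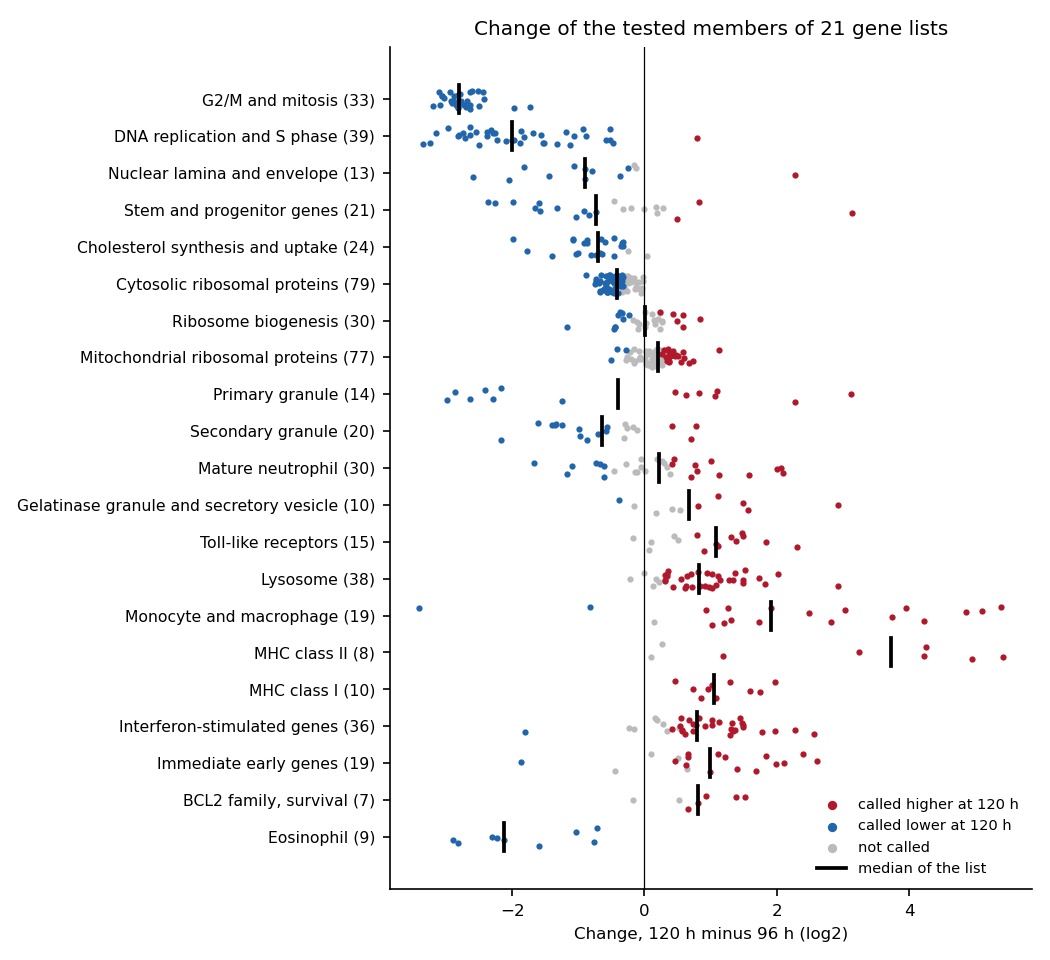
Log2 change at 120 h against 96 h of the tested members of 21 gene lists, with 1 point per gene (the number tested in brackets), red where called higher, blue where called lower, grey where not called, and a bar at the median. The mitotic list has a median of -2.81 and all of its points below 0, and the MHC class II list has a median of 3.73.

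Stem and progenitor genes were lower in part, and most genes of the nuclear lamina and envelope were lower. Among 21 stem and progenitor genes tested 11 were lower, 3 higher and 7 not called, against 21.4% lower and 21.8% higher among all genes. Kit, the receptor of stem cell factor, which is in the medium, had 31.3 and 36.3 CPM at 120 h, against 141 and 184 CPM at 96 h (log2 change -2.27 ± 0.12, adjusted p = 6.74e-12). Myb, a transcription factor of immature blood cells, had 26.8 and 33.3 CPM at 120 h, against 126 and 183 CPM at 96 h (log2 change -2.36 ± 0.15). Erg, another, had 17.6 and 15.4 CPM at 120 h, against 59.6 and 71.1 CPM at 96 h (log2 change -1.99 ± 0.11). Cd34, a surface protein of progenitors, had 43.1 and 43.2 CPM at 120 h, against 75.2 and 88.2 CPM at 96 h (log2 change -0.92 ± 0.10). Hoxa9 had 319 and 269 CPM at 120 h, against 599 and 602 CPM at 96 h (log2 change -1.03 ± 0.10, adjusted p = 8.51e-08), and any reads of the fusion that match the mouse gene would be counted with it. These 5 genes had no overlap between the times. Hmga2, a chromatin protein of immature cells, went the other way, at 61.9 and 86.9 CPM at 120 h, against 9.43 and 7.44 CPM at 96 h (log2 change 3.14 ± 0.17). Of 13 genes of the nuclear lamina and envelope 10 were lower and 1 higher, against the same shares. Lamins and their partners form the frame of the nucleus. Lmnb1, lamin B1, had 43.5 and 41.4 CPM at 120 h, against 167 and 186 CPM at 96 h (log2 change -2.06 ± 0.09, adjusted p = 5.48e-13). Lbr, the lamin B receptor known for its part in the lobed neutrophil nucleus, had 318 and 250.4 CPM at 120 h, against 508 and 555 CPM at 96 h (log2 change -0.90 ± 0.11). Lmna, lamin A, was low but higher, at 2.35 and 3.11 CPM at 120 h, against 0.686 and 0.436 CPM at 96 h (log2 change 2.27 ± 0.33).

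Lists of biosynthetic genes differed in their counts at this step, and those of the mitochondria lay near or below the shares of all genes. Of 30 genes of ribosome making 28 had been lower at 96 h against 72 h (median -0.73), against 26.5% of all genes. At 120 h 9 were lower and 6 higher, against 21.4% and 21.8% of all genes, and the median of 0.01 took either sign across the alternatives. The other lists of this paragraph stand against the same shares at 120 h. The difference between the steps was upward in 23, against 13.1% of all genes. It was also upward in 54 of 77 mitochondrial ribosomal protein genes and in 20 of 40 nuclear respiratory chain genes. Heatr1, needed for ribosomal RNA synthesis, had 120.4 and 124 CPM at 120 h, against 68.4 and 68.2 CPM at 96 h (log2 change 0.84 ± 0.10). Dkc1, which codes for dyskerin, had 14.6 and 18.5 CPM at 120 h, against 35.2 and 39.0 CPM at 96 h (log2 change -1.17 ± 0.14). The count of lower members was 1 without 120A and 4 without 96B. Cytosolic ribosomal protein genes continued lower, with 48 of 79 called lower and none higher (median -0.42, -0.45 in the step before). The count was 27 without 120A. Rpl4, an example, had 985 and 1016 CPM at 120 h, against 1764 and 1933 CPM at 96 h (log2 change -0.89 ± 0.09), and ribosomal protein genes have many near-identical pseudogenes that may share their reads. Mitochondrial ribosomal protein genes had been lower in 66 of 77 at 96 h against 72 h, against 26.5% of all genes. At 120 h 22 of them were higher and 3 lower, against 21.8% and 21.4% of all genes. The number higher was 7 without 120B, 9 without 96B and 11 with libraries scaled to their totals. Of 40 nuclear respiratory chain genes 7 were higher and 1 lower, both below the shares of all genes, with 4 higher without 120B and 3 without 96B. Of 19 genes of nucleotide synthesis 10 were lower and 2 higher. Ctps, CTP synthase, was lower at 5.08 and 7.60 CPM at 120 h, against 19.2 and 24.4 CPM at 96 h (log2 change -1.80 ± 0.15).

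Sterol synthesis was lower almost throughout. Of 24 genes of cholesterol synthesis and uptake 22 were lower and none was higher (median -0.70), against 21.4% lower and 21.8% higher among all genes. The fatty acid and glycolysis counts below stand against the same shares. The last step was the more downward in 16 cholesterol genes, against 19.0% of all genes. Insig1, a sensor and target of the sterol response, had 96.2 and 107 CPM at 120 h, against 221 and 212 CPM at 96 h (log2 change -1.09 ± 0.09, adjusted p = 3.2e-09). Acat2, which makes acetoacetyl-CoA for the pathway, had 5.51 and 7.53 CPM at 120 h, against 21.1 and 23.2 CPM at 96 h (log2 change -1.77 ± 0.13). Hsd17b7 had 16.2 and 15.9 CPM at 120 h, against 44.2 and 40.2 CPM at 96 h (log2 change -1.40 ± 0.11). All 24 genes had libraries that did not overlap between the times, against 68.4% of all genes and 6287 of the 6313 called. In fatty acid synthesis Fasn, fatty acid synthase, had 59.2 and 60.5 CPM at 120 h, against 128 and 160.2 CPM at 96 h (log2 change -1.27 ± 0.17). Fads2, a desaturase, had 11.7 and 15.3 CPM at 120 h, against 48.8 and 57.7 CPM at 96 h (log2 change -1.99 ± 0.14). The uptake gene Cd36, a scavenger receptor, went the other way, at 6.16 and 7.73 CPM at 120 h, against 0.298 and 0.116 CPM at 96 h (log2 change 5.05 ± 0.39), and DESeq2 did not call it. In total 6 of 17 fatty acid genes were higher and 7 lower. Of 23 glycolysis genes 9 were lower, 5 without 120B, and 3 were higher, 5 without 96A. Gpi1, phosphoglucose isomerase, had 990 and 877 CPM at 120 h, against 1667 and 1899 CPM at 96 h (log2 change -0.93 ± 0.11). Ldha, lactate dehydrogenase A, had 508 and 577 CPM at 120 h, against 388 and 324 CPM at 96 h (log2 change 0.61 ± 0.13).

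Primary granule genes were called in both directions. The list had 7 members lower and 7 higher of 14, against 21.4% lower and 21.8% higher among all genes, with a median log2 change of -0.40. Their summed level was 7195 and 7235 CPM at 120 h, against 4468 and 4354 CPM at 96 h, the higher at 120 h. The lower ones were Mpo, Elane, Prtn3, Ctsg, Ms4a3, Prss57 and Bpi. Mpo, myeloperoxidase, had 61.2 and 91.5 CPM at 120 h, against 258 and 552 CPM at 96 h (log2 change -2.41 ± 0.24, adjusted p = 7.1e-08). Elane, neutrophil elastase, had 3.16 and 4.25 CPM at 120 h, against 19.1 and 39.0 CPM at 96 h (log2 change -2.98 ± 0.26, adjusted p = 1.02e-08). Prtn3, proteinase 3, had 56.5 and 75.9 CPM at 120 h, against 323 and 498 CPM at 96 h (log2 change -2.63 ± 0.20). These 3 genes were higher in 96B than in 96A, and both 120 h libraries lay below both. The higher ones were Ctsc, Cd63, Gusb, Dpp7 and Srgn, which also serve lysosomes or secretion at large, and the lysozyme genes Lyz1 and Lyz2, near-identical copies that reads may not tell apart. Lyz2 stayed close to 0, at 0.649 and 0.402 CPM at 120 h, against 0.0895 and 0.0291 CPM at 96 h (log2 change 3.12 ± 0.77), and its call was lost without 120A (log2 change 2.72, adjusted p = 0.057), without 96B (log2 change 2.53, adjusted p = 0.0546) and in DESeq2.

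Most secondary granule genes that passed were lower at 120 h, after an increase to 96 h. All 20 had been higher at 96 h than at 72 h, against 27.2% of all genes. At 120 h 12 were lower and 3 higher (median -0.64), against 21.4% and 21.8% of all genes. The last step was the more downward in all 20, against 19.0% of all genes. Their summed level was 33456 and 26850 CPM at 120 h, against 56706 and 47830 CPM at 96 h, and 17 of the 20 had their highest mean of the course at 96 h. Camp, the antimicrobial peptide cathelicidin, had 180.1 and 182 CPM at 120 h, against 380 and 332 CPM at 96 h (log2 change -0.98 ± 0.18, adjusted p = 0.000229). Chil3, a chitinase-like secreted protein, had 7415 and 7520.2 CPM at 120 h, against 20387 and 19193 CPM at 96 h (log2 change -1.41 ± 0.19). Fcnb, ficolin B, had 189 and 203 CPM at 120 h, against 831 and 921 CPM at 96 h (log2 change -2.16 ± 0.17). Ltf, lactoferrin, had 5603 and 4166 CPM at 120 h, against 6457 and 5703 CPM at 96 h and did not pass the test (log2 change -0.32 ± 0.22, adjusted p = 0.268). Ngp, neutrophilic granule protein, had 3877 and 2881 CPM at 120 h, against 5588 and 4478 CPM at 96 h (log2 change -0.57 ± 0.23, adjusted p = 0.0453), and lost its call without 120B (-0.38, adjusted p = 0.308), without 96A (-0.40, adjusted p = 0.236) and in DESeq2. The 3 higher were Mmp8, Stfa2 and Mcemp1, and none of the list was higher without 120A and 1 without 96B. Mmp8, neutrophil collagenase, had 3761 and 2390.4 CPM at 120 h, against 2062 and 1519.9 CPM at 96 h (log2 change 0.78 ± 0.18, adjusted p = 0.00145), and its change was 0.42 (adjusted p = 0.0773) without 120A.

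**Figure D4:**
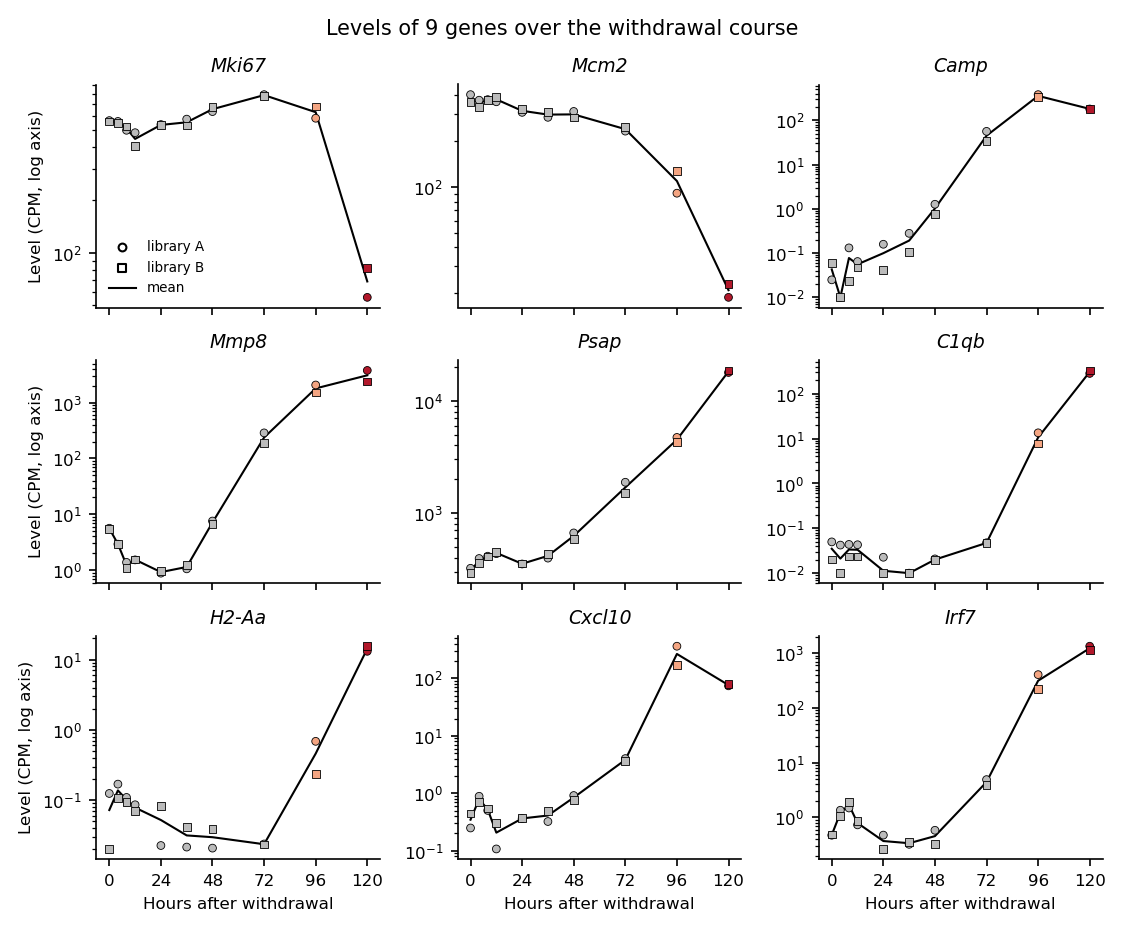
Level (CPM, log axis) of 9 genes at the 10 times after withdrawal, with circles for library A, squares for library B, dark red at 120 h, orange at 96 h and a line through the means; libraries without a count are drawn at 0.01 CPM. Mki67 and Mcm2 are lowest at 120 h, Camp and Cxcl10 are highest at 96 h, and Mmp8, Psap, C1qb, H2-Aa and Irf7 are highest at 120 h.

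Gelatinase granule genes were higher in part, and the mature neutrophil list had no common direction. Of 10 gelatinase granule and secretory vesicle genes 5 were higher, 1 lower and 4 not called, against 21.8% higher and 21.4% lower among all genes, and 8 were higher without 96A. Mmp9, gelatinase B, had 2315 and 1474 CPM at 120 h, against 1196 and 956 CPM at 96 h (log2 change 0.82 ± 0.24, adjusted p = 0.00893). It lost its call without 120A (0.46, adjusted p = 0.197), without 96B (0.66, adjusted p = 0.0857), in DESeq2 and in the fit on the 72, 96 and 120 h libraries. Cfp, the complement regulator properdin, had 889.7 and 778 CPM at 120 h, against 304 and 288 CPM at 96 h (log2 change 1.49 ± 0.13, adjusted p = 5.98e-09). Slc11a1, a metal transporter of phagosomes, had 351 and 353 CPM at 120 h, against 139 and 99.3 CPM at 96 h (log2 change 1.56 ± 0.16). Of 30 mature neutrophil genes 11 were higher, 7 lower and 12 not called, and the median of 0.23 was -0.06 without 96B. Retnlg, a resistin-like gene of late neutrophils, had 609.5 and 390.2 CPM at 120 h, against 148 and 101 CPM at 96 h (log2 change 2.00 ± 0.20, adjusted p = 4.9e-08). S100a8, a subunit of calprotectin, had 4419 and 3554 CPM at 120 h, against 7054 and 5116 CPM at 96 h (log2 change -0.61 ± 0.21, adjusted p = 0.0252). Its partner S100a9 had 6375 and 4815 CPM at 120 h, against 8655 and 6765 CPM at 96 h and did not pass (log2 change -0.46 ± 0.19, adjusted p = 0.0582). S100a8 lost its call without 120B (-0.47), without 96A (-0.36) and in DESeq2, and S100a9 gained one without 120A (-0.67), without 96B (-0.63), without the filter and with libraries scaled to their totals. Cxcr2, the chemokine receptor of mature neutrophils, had 304 and 192 CPM at 120 h, against 208 and 195 CPM at 96 h and did not pass (log2 change 0.30 ± 0.16, adjusted p = 0.139). Its log2 change was -0.062 without 120A and 0.59 and called without 120B. 120A had more of Mmp8, Mmp9, Retnlg, Cxcr2 and S100a9 than 120B.

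Receptors for microbial products, chemoattractants and antibody were higher in most cases that passed. Of 15 Toll-like receptor genes and partners 10 were higher and none lower (median 1.09), against 21.8% higher and 21.4% lower among all genes. The counts of the other lists of this paragraph stand against the same shares. Tlr1, a receptor for bacterial lipoproteins, had 120 and 137 CPM at 120 h, against 31.9 and 20.1 CPM at 96 h (log2 change 2.31 ± 0.18). Cd14, the co-receptor for endotoxin, had 1083 and 1052 CPM at 120 h, against 534 and 238 CPM at 96 h (log2 change 1.47 ± 0.23). Of 16 chemoattractant receptors 9 were higher and 2 lower. C3ar1, the receptor of complement C3a, had 511 and 489 CPM at 120 h, against 71.5 and 49.0 CPM at 96 h (log2 change 3.05 ± 0.14). Ccr2, the receptor for CCL2, had 572 and 466 CPM at 120 h, against 133 and 141 CPM at 96 h (log2 change 1.92 ± 0.14). In both the 120 h libraries were above those at 96 h. Of 15 Fc gamma and paired receptor genes 10 were higher and 2 lower, among them Clec7a, the beta-glucan receptor dectin-1, at 614 and 619 CPM at 120 h, against 154 and 100 CPM at 96 h (log2 change 2.28 ± 0.14), and Fcgr1, the high-affinity IgG receptor, at 514 and 502 CPM at 120 h, against 165 and 110.3 CPM at 96 h (log2 change 1.88 ± 0.13). The NADPH oxidase, which makes the respiratory burst, had 2 of 8 genes lower and 1 higher. Ncf1, its p47 subunit, had 1795 and 1533 CPM at 120 h, against 2562 and 2378 CPM at 96 h (log2 change -0.57 ± 0.11). Cybb, its catalytic subunit, had 2839 and 2376 CPM at 120 h, against 3013 and 2092 CPM at 96 h and did not pass (log2 change 0.03 ± 0.19, adjusted p = 0.919). Of 17 integrin and adhesion genes 6 were higher and 5 lower, 3 lower without 120B or 96A. Itgax, CD11c, had 119.7 and 119 CPM at 120 h, against 26.3 and 15.6 CPM at 96 h (log2 change 2.51 ± 0.17). Itgam, CD11b, had 2644 and 2109 CPM at 120 h, against 3185 and 3052 CPM at 96 h (log2 change -0.39 ± 0.13, adjusted p = 0.0234), a call lost without 120B (-0.24) or 96A (-0.36). Of 36 actin and motility genes 5 were higher and 2 lower, with 3 higher without 120A or 96B, and Capg, a filament capping protein, had 588 and 616 CPM at 120 h, against 189.9 and 139 CPM at 96 h (log2 change 1.87 ± 0.14).

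Lysosomal genes were an abundant group that was higher at 120 h. Of 38 tested 33 were higher and none was lower, against 21.8% higher among all genes, with a median log2 change of 0.82 and log2 changes of called members between 0.31 and 2.92. Their summed level was 59509 and 62766 CPM at 120 h, against 25061 and 22190 CPM at 96 h. Psap (ENSMUSG00000004207.11, chromosome 10, 60277627 to 60302597, plus strand), the precursor of the saposins that present lipids to lysosomal hydrolases, had 17857 and 18629 CPM at 120 h, against 4712 and 4281 CPM at 96 h (log2 change 2.02 ± 0.11, adjusted p = 1.19e-11). Ctss, cathepsin S, had 3023 and 3187 CPM at 120 h, against 496 and 324 CPM at 96 h (log2 change 2.92 ± 0.14, adjusted p = 1.66e-12). Ctsb, cathepsin B, had 6216 and 7309 CPM at 120 h, against 2160.4 and 1652 CPM at 96 h (log2 change 1.83 ± 0.12). Cd68, a membrane protein of macrophage lysosomes, had 297 and 338 CPM at 120 h, against 102 and 89.9 CPM at 96 h (log2 change 1.73 ± 0.11). Ctsd, whose promoter is printed above, had 9534 and 10415 CPM at 120 h, against 3775 and 3341 CPM at 96 h (log2 change 1.49 ± 0.13). No 96 h library reached a 120 h library in any of these 5. The members had risen before, with 28 called higher at 96 h against 72 h (median 0.51), against 27.2% of all genes. The difference between the steps was upward in 11 and downward in 2, against 13.1% and 19.0% of all genes. For Psap that difference was 0.61 ± 0.19 (adjusted p = 0.0193). Autophagy genes had no common direction, with 4 of 17 higher and 4 lower, against 21.8% and 21.4% of all genes.

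**Figure D5:**
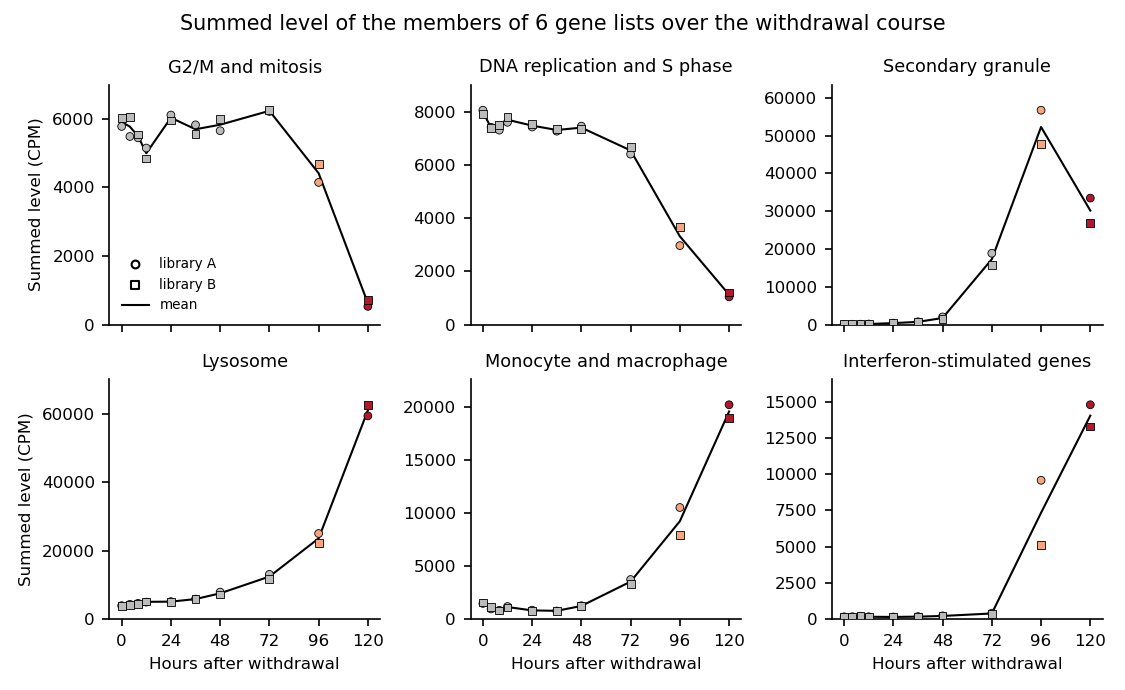
Summed level (CPM) of the members of 6 gene lists at the 10 times after withdrawal, with circles for library A, squares for library B, dark red at 120 h, orange at 96 h and a line through the means. The secondary granule sum is highest at 96 h, the lysosome and macrophage sums are highest at 120 h, and the interferon list at 96 h has 9587 CPM in library A and 5104 CPM in library B.

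Macrophage marker genes were higher, in libraries that kept abundant neutrophil transcripts. Of 19 monocyte and macrophage genes tested 16 were higher and 2 lower (median 1.92), against 21.8% higher and 21.4% lower among all genes, and the summed level was 20174 and 18906 CPM at 120 h, against 10503 and 7919.7 CPM at 96 h. Marco and Timd4, markers of resident macrophages, had no count in the 4 libraries and were not tested. C1qa, the remaining C1q chain, had 37.8 and 41.5 CPM at 120 h, against 1.16 and 0.727 CPM at 96 h (log2 change 5.39 ± 0.23). Mrc1, the mannose receptor, had 13.8 and 13.3 CPM at 120 h, against 0.686 and 0.756 CPM at 96 h (log2 change 4.23 ± 0.21). Csf1r, the receptor of the macrophage growth factor, had 2361 and 2194 CPM at 120 h, against 1415 and 833 CPM at 96 h (log2 change 1.02 ± 0.19, adjusted p = 0.000231). The 2 lower were Vcam1, an adhesion molecule and the only member called at least 2-fold lower, and Ly6c2, a marker of young monocytes. The lowest log2 change in the list was -3.41. Ly6c2 had 470.3 and 436 CPM at 120 h, against 917 and 682 CPM at 96 h (log2 change -0.82 ± 0.13, named after its value was seen). Beside these stood the secondary granule genes at 33456 and 26850 CPM and the mature neutrophil genes at 22345 and 17728 CPM at 120 h, against 26549 and 20381 CPM at 96 h. Whether the libraries held cells of both kinds or cells with both sets of transcripts was not tested. The macrophage sum was larger in 96A than in 96B, as was the neutrophil sum.

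Genes of antigen presentation were higher in both MHC classes. All 10 MHC class I genes tested were higher (median 1.05), against 21.8% of all genes. B2m, the invariant light chain, had 6206 and 5778 CPM at 120 h, against 2518 and 1434 CPM at 96 h (log2 change 1.60 ± 0.18). H2-K1, a heavy chain, had 2179.5 and 2009.9 CPM at 120 h, against 628 and 439 CPM at 96 h (log2 change 1.97 ± 0.13, adjusted p = 1.51e-10), with reads of the heavy chain genes uncertain because the family members are alike. Of 8 MHC class II genes 6 were higher and none lower, all 6 by at least 2-fold (median 3.73). H2-Aa, an alpha chain, had 13.1 and 15.5 CPM at 120 h, against 0.686 and 0.233 CPM at 96 h (log2 change 4.95 ± 0.31, adjusted p = 5.71e-11). Ciita, the activator of the class II genes, had 0.838 and 1.51 CPM at 120 h, against 0.0895 and 0.0291 CPM at 96 h (log2 change 4.23 ± 0.68). Cd74, the invariant chain, chosen after its values were seen, had 573 and 534 CPM at 120 h, against 84.7 and 32.5 CPM at 96 h (log2 change 3.24 ± 0.26). H2-Aa, Ciita and H2-Ab1 were near 0 at 96 h, so that their fold changes rest on few reads, and in H2-Ab1 the library 96B had no count. H2-Ab1 had 2.95 and 3.61 CPM at 120 h, against 0.149 and 0 CPM at 96 h.

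The interferon response, which had appeared between 72 and 96 h, was higher again at 120 h in most of its genes, in a number that changed with the 96 h libraries. All 36 interferon-stimulated genes tested had been called higher at 96 h against 72 h (median 5.92), against 27.2% of all genes. At 120 h 28 were called higher, 1 lower and 7 not called (median 0.80), against 21.8% higher and 21.4% lower among all genes. Without 96B 20 were higher and 3 lower. The difference between the steps was downward in all 36, against 19.0% of all genes. Irf7, the factor that amplifies the response, had 4.90 and 3.96 CPM, then 405 and 223 CPM, then 1339 and 1124 CPM at 72, 96 and 120 h (log2 change for 120 h against 96 h 1.97 ± 0.19, adjusted p = 3.35e-08). Ddx60, a helicase of RNA sensing, had 79.3 and 73.3 CPM at 120 h, against 18.3 and 7.59 CPM at 96 h (log2 change 2.56 ± 0.25). Ifi27l2a had 280.5 and 284 CPM at 120 h, against 75.3 and 40.8 CPM at 96 h (log2 change 2.28 ± 0.20). Cxcl10 (ENSMUSG00000034855.10, chromosome 5, 92346638 to 92348889, minus strand), a chemokine induced by interferon, had 74.3 and 78.8 CPM at 120 h, against 364 and 169.7 CPM at 96 h (log2 change -1.80 ± 0.22, adjusted p = 9.24e-07). It was the only member called lower with all libraries, and its log2 change was -1.15, still called, without 96A. Rsad2, the antiviral protein viperin, had 648 and 569 CPM at 120 h, against 572 and 276 CPM at 96 h and did not pass (log2 change 0.52 ± 0.28, adjusted p = 0.143), and its change was 1.14 and called without 96A. Ifit1, whose promoter is printed above, had 634 and 572 CPM at 120 h, against 519 and 238 CPM at 96 h (log2 change 0.67 ± 0.24, adjusted p = 0.029), with 1.34 without 96A and 0.21 (not called) without 96B, and calls lost without either 120 h library and in DESeq2.

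The 96 h libraries disagreed on the size of the interferon response. The summed level of the 36 genes was 14803 and 13301 CPM at 120 h, against 9587 and 5104 CPM at 96 h. In Irf7, Ddx60, Ifit1, Rsad2 and Cxcl10 96A lay well above 96B, whereas the 120 h libraries lay close to each other. Without 96A 33 of the 36 were called higher (median 1.33), and without 96B the median was 0.45. What set the 96 h libraries apart was not tested.

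Inflammatory genes under NF-kB control had no common direction. Of 27 tested 7 were higher and 6 lower, against 21.8% higher and 21.4% lower among all genes. Il1b, interleukin 1 beta, had 189 and 95.6 CPM at 120 h, against 49.4 and 17.4 CPM at 96 h (log2 change 2.09 ± 0.34, adjusted p = 4.2e-05). Ptgs2, cyclooxygenase 2, had 16.7 and 7.40 CPM at 120 h, against 3.79 and 1.89 CPM at 96 h (log2 change 2.09 ± 0.32, and 1.39, still called, without 120A). In both genes the A library was the higher at each time. The counts moved with the 96 h libraries, to 14 higher and 2 lower without 96A and to 3 higher and 9 lower without 96B. Immediate early genes were higher in 14 and lower in 1 of 19, against 21.8% and 21.4% of all genes. Fos, a subunit of AP-1, had 265 and 119 CPM at 120 h, against 44.9 and 44.6 CPM at 96 h (log2 change 2.10 ± 0.22, adjusted p = 1.29e-07). Atf3 had 86.5 and 98.8 CPM at 120 h, against 28.1 and 18.8 CPM at 96 h (log2 change 1.98 ± 0.20). Egr1 had 157 and 41.8 CPM at 120 h, against 21.1 and 11.5 CPM at 96 h (log2 change 2.61 ± 0.38). Egr1 and Fos were higher in 120A than in 120B, and without 120A the log2 change of Egr1 was 1.36 and still called. Of 26 haematopoietic cytokine receptors 16 were higher and 2 lower, against the same shares, among them Il10ra, the receptor of interleukin 10, at 90.1 and 77.6 CPM at 120 h, against 33.2 and 24.6 CPM at 96 h (log2 change 1.54 ± 0.15). Csf3r, the receptor of the granulocyte growth factor, had 565 and 449.8 CPM at 120 h, against 358 and 399 CPM at 96 h (log2 change 0.42 ± 0.13, adjusted p = 0.0118), a call lost without 120A (0.26) or 96A (0.35).

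Transcription factors of the lineages moved singly. Of 30 myeloid factors 11 were higher and 5 lower, against 21.8% higher and 21.4% lower among all genes. Cebpe, the factor of secondary granule genes, had 113 and 95.0 CPM at 120 h, against 178 and 202 CPM at 96 h (log2 change -0.87 ± 0.14, adjusted p = 3.45e-05). Gfi1, a repressor needed for granulocytes, had 16.03 and 21.8 CPM at 120 h, against 74.7 and 108 CPM at 96 h (log2 change -2.27 ± 0.15, adjusted p = 1.33e-10). Both were lower at 120 h without overlap. Egr2, a factor of macrophages, had 48.5 and 27.4 CPM at 120 h, against 9.37 and 5.09 CPM at 96 h (log2 change 2.396 ± 0.25). Cebpb and Cebpd, factors of late granulocytes and monocytes, did not pass: Cebpb had 75.3 and 67.03 CPM at 120 h, against 73.7 and 40.9 CPM at 96 h (log2 change 0.31 ± 0.19, adjusted p = 0.192) and Cebpd had 63.0 and 48.7 CPM at 120 h, against 66.1 and 53.2 CPM at 96 h (log2 change -0.09 ± 0.16, adjusted p = 0.675). The change of Cebpb was 0.80 and called without 96A.

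Some genes of survival and some of death were higher. Of 7 survival members of the BCL2 family 5 were higher and none lower, against 21.8% and 21.4% of all genes. Bcl2l1, which codes for BCL-XL, had 107 and 117 CPM at 120 h, against 46.0 and 39.7 CPM at 96 h (log2 change 1.39 ± 0.11, adjusted p = 1.59e-09). Bcl2 had 14.2 and 17.97 CPM at 120 h, against 6.33 and 4.86 CPM at 96 h (log2 change 1.52 ± 0.16). The count was 3 without 120B or 96B, where the Bcl2a1 genes, near-identical copies, lost their calls. Of 8 death members 5 were higher and none lower, against the same shares, and Bcl2l11, which codes for the killer protein BIM, had 227 and 221 CPM at 120 h, against 81.3 and 71.9 CPM at 96 h (log2 change 1.55 ± 0.10, adjusted p = 1.08e-10). Of 21 caspases and related genes 6 were higher and 5 lower, and leaving out 1 library changed the number higher to as few as 2 (120A) and the number lower to as few as 2 (120B). Of 23 p53 targets 9 were higher, 2 lower and 12 not called, against 21.8% higher and 21.4% lower among all genes, among them Plk2, a stress-induced kinase, at 9.73 and 13.99 CPM at 120 h, against 1.82 and 0.814 CPM at 96 h (log2 change 3.17 ± 0.30). The antioxidant and iron list had 8 of 16 higher and 3 lower, against the same shares. Fth1, the heavy chain of the iron store ferritin, had 6184 and 6695 CPM at 120 h, against 2176 and 1091 CPM at 96 h (log2 change 1.98 ± 0.19, adjusted p = 3.17e-08), with pseudogenes that may share its reads. Prdx1, a peroxide scavenger, had 659.7 and 793 CPM at 120 h, against 228 and 159.8 CPM at 96 h (log2 change 1.91 ± 0.15, adjusted p = 1.43e-09). In the step before, Prdx1 had a log2 change of -0.02 that was not called, and the steps differed by 1.93 ± 0.26 (adjusted p = 9.61e-06). For the other stress lists the counts stand against the same shares. They were 9 higher and 7 lower of 21 ATF4 targets, and 3 and 4 of 21 genes of the unfolded protein response. Of 9 heat shock genes 4 were higher and 2 lower, and of 14 hypoxia genes 4 and 3.

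Markers of eosinophils and mast cells were lower. All 9 eosinophil genes tested were lower (median -2.12), against 21.4% lower among all genes. Their summed level was 194 and 172 CPM at 120 h, against 489.7 and 516 CPM at 96 h. For the lists that follow, 21.4% of all genes were lower and 21.8% higher. Prg2, the eosinophil major basic protein, had 42.6 and 38.6 CPM at 120 h, against 193 and 209.9 CPM at 96 h (log2 change -2.31 ± 0.14, adjusted p = 2.35e-11), and had been at 1298 and 1440.1 CPM at 72 h. Of 6 mast cell and basophil genes 5 were lower and none higher, among them Ms4a2, a chain of the IgE receptor, at 0.433 and 0.469 CPM at 120 h, against 3.07 and 4.59 CPM at 96 h (log2 change -3.09 ± 0.25). The lists of dendritic cells (2 higher of 6 tested), erythroid cells (2 lower of 3) and fibroblasts held few reads, with summed levels at 120 h of 35.4 and 32.0 CPM, 0.838 and 0.569 CPM, and 4.79 and 3.21 CPM. Both fibroblast genes tested missed the threshold in edgeR. Other lists were mixed. Of 13 B cell genes tested 4 were higher and 1 lower, and the defining genes Pax5 and Ms4a1 were at or near 0 throughout. Cd22, a sialic acid receptor, had 17.8 and 23.2 CPM at 120 h, against 2.03 and 2.18 CPM at 96 h (log2 change 3.28 ± 0.21, adjusted p = 4.52e-10). Blnk, a signalling adaptor, had 38.2 and 45.7 CPM at 120 h, against 11.3 and 9.39 CPM at 96 h (log2 change 2.02 ± 0.17). Both genes were higher in each 120 h library than in either 96 h library. Of 5 T and NK cell genes tested 2 were higher, among them Cd28 at 194 and 206 CPM at 120 h, against 105 and 113 CPM at 96 h (log2 change 0.87 ± 0.11), and 1 was lower, while Cd3e and Cd8a had no count in the 4 libraries. Of 7 megakaryocyte genes 3 were higher and 3 lower. Pf4, a platelet chemokine, had 20.03 and 22.6 CPM at 120 h, against 0.239 and 0.203 CPM at 96 h (log2 change 6.57 ± 0.30, adjusted p = 7.49e-13). Ppbp, another, had 7.54 and 7.80 CPM at 120 h, against 0.985 and 0.262 CPM at 96 h (log2 change 3.62 ± 0.38). Itga2b, the integrin of platelets, had 1.24 and 1.67 CPM at 120 h, against 6.53 and 8.98 CPM at 96 h (log2 change -2.43 ± 0.20). The chemokines and Vwf were higher, and Itga2b, Gp9 and Gp1ba, which code for platelet surface proteins, were lower.

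Feedback genes of receptor kinase signalling, which dampen the pathway that stem cell factor activates, had 6 of 13 higher and 3 lower, with 1 lower without either 120 h library or without 96A. Dusp6, a phosphatase of ERK, had 167 and 87.8 CPM at 120 h, against 22.9 and 17.9 CPM at 96 h (log2 change 2.64 ± 0.20, adjusted p = 8.52e-10). Etv5, a transcription factor induced by ERK, had 51.1 and 52.6 CPM at 120 h, against 6.89 and 3.17 CPM at 96 h (log2 change 3.37 ± 0.21). Both were well above their 96 h levels in each 120 h library, with Dusp6 the higher in 120A. Spry2, an inhibitor of the pathway, had 0.973 and 0.870 CPM at 120 h, against 2.92 and 4.07 CPM at 96 h (log2 change -1.92 ± 0.20). Of 11 genes of eicosanoid synthesis 3 were higher and 5 lower, against 21.8% higher and 21.4% lower among all genes. The counts of the feedback genes and of the lists that follow stand against the same shares. Lta4h, the last enzyme of leukotriene B4 synthesis, had 369 and 343 CPM at 120 h, against 984 and 1102 CPM at 96 h (log2 change -1.55 ± 0.09, adjusted p = 1.52e-11). Hpgds, a prostaglandin D synthase, had 134 and 159.5 CPM at 120 h, against 55.8 and 48.3 CPM at 96 h (log2 change 1.497 ± 0.12). Both had separate times, in opposite directions. Of 9 S100 genes 3 were higher and 3 lower, with 1 lower without 120B or 96A, and S100a10, a partner of annexin A2, had 83.7 and 89.2 CPM at 120 h, against 25.8 and 25.2 CPM at 96 h (log2 change 1.76 ± 0.13). Of 12 mitochondrially encoded genes 1, mt-Nd4, was lower and none higher. It had 560.3 and 506 CPM at 120 h, against 733 and 665 CPM at 96 h (log2 change -0.39 ± 0.16, adjusted p = 0.0499), and lost its call without any 1 of the 4 libraries (-0.32, adjusted p = 0.22, without 120B).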

How the data were processed

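RNA-seq of 24 libraries was available as 1 table of whole-number read counts per gene. The authors deposited the counts without normalization. Per the labels' protocols the libraries were oligo-dT selected, stranded and read as 101 bp paired ends, and the submitters' processing notes name STAR 2.4.2a, Picard and the mm10 build. The counting program, its strand setting and the annotation release are not given in the sources used here. Rows that name no gene (unmapped, multimapping, no feature, ambiguous) were kept out of library sizes, and genes held 84.6 and 84.6% of all rows' counts at 120 h, against 83.2 and 83.5% at 96 h. Gene symbols and mm10 positions came from the GENCODE annotation by stable identifier.

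The 20 withdrawal libraries were fitted in edgeR 4.0.16 (R 4.3.3, limma 3.58.1) with time as a factor, TMM scaling, the filterByExpr filter and the quasi-likelihood test. Adjusted p-values are Benjamini-Hochberg over all genes tested, and a ± is the standard error of a log2 change. The 4 libraries labelled R07 entered no comparison. Named genes were a fixed panel, the 15 highest and 15 lowest called changes with mean log2 CPM of at least 3 and non-overlapping libraries, the 6 highest and 6 lowest differences between the last step and the one before, and up to 4 called members of each list with the largest absolute change. The members and the 56 gene lists were chosen with earlier results of these data known. On simulated counts of 14380 genes for 120 h against 96 h the fit recovered 70.1% of 67 genes changed 1.5-fold. It recovered 92.5% of 67 changed 2-fold and 98.5% of 66 changed 4-fold, and 7.45% of 188 calls were false. Those counts were drawn with the spread that the fit itself had estimated, and few genes were changed, equally up and down. Far more genes were called in the data, so these shares may not carry over. Alternatives were RLE scaling, no filter, DESeq2 1.42.0, limma voom with quality weights, fits on fewer times, a replicate block and leaving out each library. Total counts as library sizes, list counts under each alternative and the promoter motifs GAAANNGAAA and TCACGTGA were added after seeing the data. Some genes are not reported here.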

Additional observations from a re-analysis of the deposited data

Results flagged for a closer look

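The change over the last 24 h differed from the change over the 24 h before in 4687 genes (edgeR test of (120 h minus 96 h) minus (96 h minus 72 h), adjusted p under 0.05). Both steps use the 96 h libraries. Values are in the order 72, 96 and 120 h.

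The differences were ranked among called genes with a mean of at least 3 log2 CPM over the 4 libraries at 96 and 120 h. That floor left out the 72 h libraries, so genes near 0 at 72 h could pass it. The 6 most negative differences belonged to genes that were higher at 96 h than at 72 h by far more than they changed at 120 h. That last change was a smaller increase (Ifit1), was not called or was a decrease. Cxcl10 had 4.02 and 3.63 CPM, then 364 and 169.7 CPM, then 74.3 and 78.8 CPM, a difference of -7.92 ± 0.38. Ifi205, an interferon-induced DNA sensor family member, differed by -7.77 ± 0.53, with 0.167 and 0.0702 CPM, 23.3 and 13.5 CPM and 12.4 and 13.3 CPM. Acod1, which makes itaconate, differed by -7.24 ± 0.53, with 0.999 and 1.124 CPM, 307 and 103 CPM and 246 and 277 CPM. Rsad2 differed by -6.77 ± 0.51, Gbp5, a guanylate-binding protein, by -6.65 ± 0.40 and Ifit1 by -6.55 ± 0.44. In each of the 6 96A was above 96B.

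The 6 most positive differences belonged to genes that were low at 96 h and higher at 120 h. H2-Q7 differed by 3.62 ± 0.29, with 9.07 and 9.67 CPM, 10.7 and 6.74 CPM and 104 and 93.8 CPM. Rab3il1 differed by 3.49 ± 0.31, with 3.19 and 2.46 CPM, 4.12 and 3.58 CPM and 56.7 and 61.3 CPM. Pcp4l1 differed by 3.34 ± 0.37, Trem2 by 3.30 ± 0.30, Vat1 by 3.01 ± 0.24 and H2-Q6 by 2.93 ± 0.34. The H2-Q genes are near-identical, so their separate values are uncertain.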

How the results depend on the processing

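The count of 6313 genes called was smaller with any 1 of the 4 libraries left out. Under the other alternatives it ranged from 4970 (96 and 120 h libraries alone) to 6376 (replicate block on the column letter). No gene called both in the main fit and in an alternative took opposite directions in them. Called genes that lost their call in an alternative were not counted there. RLE scaling gave 3455 higher and 2909 lower, and total counts gave 2564 higher and 3730 lower. DESeq2 called 6186 and voom 5311. The count for the step before ranged from 5832 to 8308 and that for the difference between steps from 3355 to 4773. The labels do not say whether a column letter marks a shared culture, and the letters were not treated as pairs in the main fit. Deviations of A from B at 120 and 96 h correlated at 0.205 across genes. Over 45 pairs of times the correlations were -0.632 to 0.682 (median 0.132), with 24 over 0.1. Whether a letter carries a shared effect was not tested. The fit with the replicate block gave 6376 calls, and among named genes it added those of Mxd1 (-0.29, adjusted p = 0.0464) and S100a9 (-0.47, adjusted p = 0.00465). Leaving out 1 library also moved small counts of list members called lower by more than 1.5 times, for example to 2 autophagy genes, 1 antioxidant gene, 2 genes of the unfolded protein response, and 0 p53 targets or cytokine receptors.

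Of 256 named genes 245 were called, 214 kept the call under every alternative and 29 lost it when 1 library was left out. Directions turned only for 5 genes that had not passed: Cybb (-0.054 with total counts, -0.0062 without the filter, -0.096 without 120A and -0.21 without 96B, up to 0.32 without 96A), Cxcr2 (-0.062 without 120A, 0.59 without 120B), Cebpb (-0.053 without 96B, 0.80 without 96A), Cebpd (0.076 without 120B and 0.075 without 96A, down to -0.28 without 120A) and Acod1 (-0.24 without 96B, 1.34 without 96A). The cause was not tested. With 2 libraries a time, a lone library was assumed to vary like the other times. Depth limits the genes near 0 at 1 time, whose fold changes rest on few reads.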

Other observations

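A few genes that had fallen through most of the course were higher at 120 h. Hmga2 had 287 and 307 CPM at 0 h, then 4.02 and 5.64 CPM at 72 h, 9.43 and 7.44 CPM at 96 h before reaching 61.9 and 86.9 CPM at 120 h. Etv5 had 64.9 and 58.9 CPM at 0 h, then 1.24 and 1.40 CPM at 72 h, 6.89 and 3.17 CPM at 96 h before reaching 51.1 and 52.6 CPM at 120 h. Dusp6 had 149.5 and 158 CPM at 0 h, then 10.6 and 11.1 CPM at 72 h, 22.9 and 17.9 CPM at 96 h before reaching 167 and 87.8 CPM at 120 h. Ccr2 had 745 and 798 CPM at 0 h, then 72.5 and 69.0 CPM at 72 h, 133 and 141 CPM at 96 h before reaching 572 and 466 CPM at 120 h. H2-Q7, an MHC class I gene with near-identical copies, had 117 and 101 CPM at 0 h, then 10.7 and 6.74 CPM at 96 h before reaching 104 and 93.8 CPM at 120 h. These genes were chosen after their values were seen. Over all genes, 285 of the 3181 called higher (8.96%) had their highest mean of the course at 0 h, and 785 (24.7%) had their lowest at 96 h. Of the genes called lower at 120 h, 793 (25.3%) had their highest mean at 96 h.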
